A study of Homo sapiens with 16 samples.

Results

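The clade B serpins, also called ovalbumin-type serpins, were followed in MCF10HER2 cells over 45 h of treatment with CP724,714, which blocks the kinase activity of HER2 and is a small molecule. Members were the genes SERPINB1, SERPINB2, SERPINB3, SERPINB4, SERPINB5, SERPINB6, SERPINB7, SERPINB8, SERPINB9 and SERPINB13, found by their symbol in the table of array signals, which gave 10 of the 18190 gene symbols, each with 1 probe. The parent line is MCF10A, human breast epithelial cells that are not transformed, into which a HER2 transgene was stably transduced to give MCF10HER2. The untreated group is 1 culture at 0 h, and the treated groups are parallel cultures that had received CP724,714 at 1 µM and were harvested at intervals of 3 h, the last of them after 45 h. All cultures, the untreated one included, were of the same HER2 over expressing line and grew in serum-free medium that held EGF and hydrocortisone and, according to the methods of the study, no insulin. RNA of each culture was hybridised to 1 Illumina Ref-8 v2 beadchip array, so each of the 16 time points has 1 array and no replicate. No untreated culture later than 0 h was analysed here, so the effect of the inhibitor and that of time in culture cannot be told apart, nor can fewer cells of a kind and less RNA per cell in such bulk samples.

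Serpins are protease inhibitors that work as bait: the target protease cleaves an exposed loop of the serpin, and the serpin then snaps into a new shape that traps the enzyme. Clade B serpins lack a classical secretion signal, so most of them act inside the cell, where they guard against proteases that leak from lysosomes or granules, and some are also released. Epithelia of skin and breast are rich in several of them. The human genes lie in a cluster on the short arm of chromosome 6 (6p25: SERPINB1, SERPINB6 and SERPINB9) and a longer one on chromosome 18 (18q21: SERPINB2, SERPINB3, SERPINB4, SERPINB5, SERPINB7, SERPINB8 and SERPINB13).

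A probe was taken as detected on an array when its deposited detection p, which sets it against the negative control probes of that array, was under 0.05. SERPINB1 and SERPINB6 at 6p25 and SERPINB5, SERPINB7 and SERPINB8 at 18q21 were detected on all 16 arrays, as were 42.1% of all 20589 probes. SERPINB2 was detected on 10 arrays and SERPINB9 on 1, that at 12 h, where its detection value was 0.0339. SERPINB3, SERPINB4 and SERPINB13 were detected on 0 arrays. The tests took in every probe that was detected on at least 3 arrays, and this held for 6 of the 10 members and for 59.8% of all probes. All values below are normalized log2 intensities unless they are called deposited intensities, and the level of a probe is set only against the same probe at other times.

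The arrays were not alike. The background of an array was taken as the median intensity of the 3343 probes whose mean detection p over the arrays was above 0.5, called undetected probes here. It was 135.9 to 148.9 on the 8 arrays from 0 to 21 h and 164.5 to 173.9 on the 8 arrays from 24 to 45 h, and these are called array batches here, although the labels name none. The arrays at 9 h and 18 h were dim, with an upper quartile intensity of 397 and 418. Time and batch overlap, so the trends of the members are given over the course and also within each batch. The epithelial keratins KRT5, KRT8 and KRT18 and the adhesion molecule EPCAM were detected on all 16 arrays, but KRT14, a basal keratin, was detected on 1. Epithelial markers moved in both directions over the course: KRT17, ITGB4 and KRT8 rose by 2.90, 1.51 and 0.66 along the line, and KRT5 fell by 0.47. With the batch as a block KRT17 (2.97, limma adjusted p = 0.0143) and KRT5 (-1.10, limma adjusted p = 0.00207) kept their calls. ITGB4 (1.85, limma adjusted p = 0.0859) and KRT8 (0.39, limma adjusted p = 0.555) lost theirs. Of 12 markers of other cell types, 6 were detected on 0 arrays (COL1A1, COL1A2 and PDGFRB of fibroblasts, CD79A of B cells, VWF and CDH5 of endothelium). DCN, CD14 and PECAM1 were detected on all 16 arrays, and by the linear fit DCN rose by 0.26 (limma adjusted p = 0.0013) and CD14 by 0.31 (limma adjusted p = 0.00935). The summed deposited intensity, background included, was 659 on the lowest array and 1105 on the highest for the 4 fibroblast markers, 902 and 1368 for the 5 leukocyte markers, and 486 and 787 for the 3 endothelial markers. The part of these markers in the results was not tested.

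The members parted by cluster. Both tested 6p25 members rose over the course, 3 of the 4 tested 18q21 members fell, and the remaining 18q21 member, SERPINB2, passed no test. With the array batch as a block, the linear calls of both 6p25 members and of SERPINB8 were lost. The linear call of SERPINB6 was also lost in 10 of the 16 fits that left out 1 array. The median linear change, the log2 change along a straight line over 45 h, was 0.51 for the 6p25 members tested and -0.94 for the 18q21 members tested, beside -0.0022 for all 12321 probes tested. By a natural cubic spline of time in limma, 5 of the 6 tested members were time-dependent at a limma adjusted p under 0.05, beside 41.9% of all probes tested. By the straight line 12.9% of all probes rose and 11.5% fell. These p-values rest on the scatter of single arrays about a curve in time, and the members are not replicates, so the clusters were compared by counts and medians and not by a test. By the steps called below, the 2 rises and the fall of SERPINB8 came early. The fall of SERPINB7 came late, and that of SERPINB5 came at both times.

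**Figure D1:**
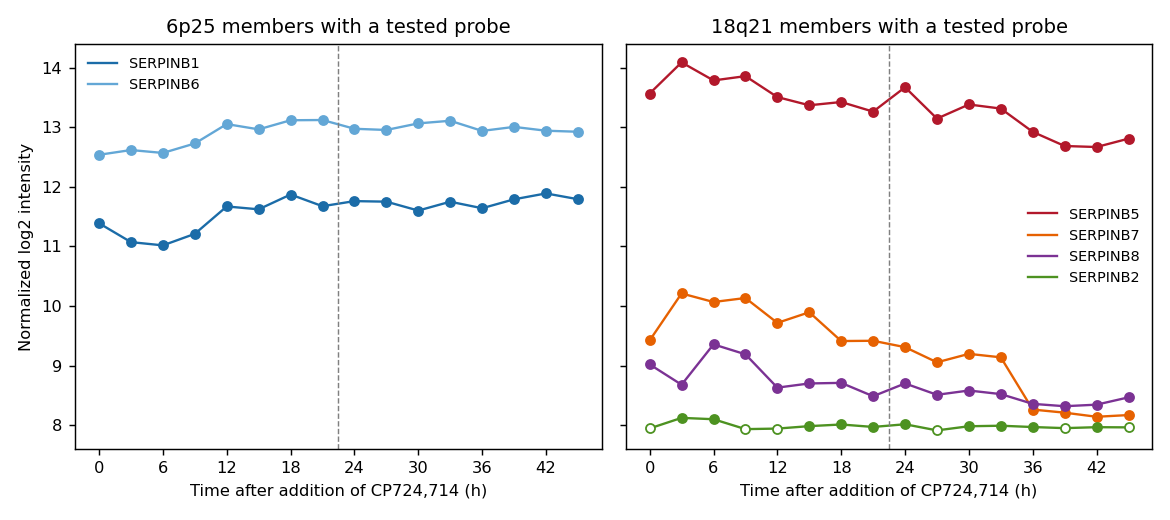
Normalized log2 intensity (vertical axis) of the 6 tested members on each of the 16 arrays against time after addition of CP724,714 in hours (horizontal axis), with the 6p25 members at left and the 18q21 members at right. Filled points are detected (detection p under 0.05), open points are not, and the dashed line parts the array batches. SERPINB1 and SERPINB6 step up between 9 h and 12 h, and SERPINB7 drops between 33 h and 36 h.

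SERPINB1, also known as leukocyte elastase inhibitor, inhibits the neutrophil proteases elastase, cathepsin G and proteinase 3, and SERPINB6 inhibits cathepsin G and is found in many tissues. The 250 bases before the start of each gene in RefSeq (GRCh38.p14) are shown here because both genes rose together and their promoters differ in make-up from those at 18q21. They lie at chr6:2841864-2842113 and at chr6:2971568-2971817, both on the minus strand, and SERPINB6 has 4 listed starts, of which the outermost was taken. Capitals mark matches to the GC box, GGGCGG on either strand, which was found in 2 places before SERPINB1, where the matches overlap, and in 3 before SERPINB6. The same letters stand in 42.6% of the 35114 promoters of this length.
SERPINB1: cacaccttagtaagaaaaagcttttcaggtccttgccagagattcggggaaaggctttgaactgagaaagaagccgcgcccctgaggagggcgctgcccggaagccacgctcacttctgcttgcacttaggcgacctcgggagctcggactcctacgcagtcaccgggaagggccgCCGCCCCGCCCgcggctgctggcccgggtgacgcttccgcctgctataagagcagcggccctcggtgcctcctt
SERPINB6: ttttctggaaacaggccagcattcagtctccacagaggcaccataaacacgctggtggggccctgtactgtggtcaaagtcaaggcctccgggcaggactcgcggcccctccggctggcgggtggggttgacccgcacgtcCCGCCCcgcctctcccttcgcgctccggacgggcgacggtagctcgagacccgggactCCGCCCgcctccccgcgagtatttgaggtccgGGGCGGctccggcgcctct

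SERPINB1 was at 11.39, 11.07, 11.02 and 11.21 at 0, 3, 6 and 9 h. It was then at 11.67, 11.62, 11.87 and 11.68 at 12, 15, 18 and 21 h. From 24 h on it stayed between 11.60 (30 h) and 11.89 (42 h). The 12 arrays from 12 h on were all higher than the 4 arrays from 0 to 9 h. How many of all probes part in this way was not counted. In sets of 4 neighbouring time points, a comparison chosen after seeing the data in which the arrays of a set are different times and not replicates, the mean was 11.17 ± 0.17 (SD, n = 4) from 0 to 9 h and 11.71 ± 0.11 (SD, n = 4) from 12 to 21 h. That is a rise of 0.54 (SE 0.10, limma adjusted p = 0.000389) or 1.45-fold, in a contrast in which 17.5% of all probes were higher and 18% lower. With arrays scaled to their medians in place of quantile normalization this rise was 0.84 (limma adjusted p = 0.000474). With that scaling 2570 of all probes tested were called higher in this contrast and 4895 lower, with a median of -0.09. The later sets differed little, by 0.01 (limma adjusted p = 0.997) and by 0.06 (limma adjusted p = 0.753).

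Over the whole course SERPINB1 rose by 0.64 along the line (SE 0.16, limma adjusted p = 0.00596) and its spline was past the threshold (limma adjusted p = 0.00588). Of all probes tested, 628 had a higher linear change. Its highest value, at 42 h, was 1.83-fold over its lowest, at 6 h, beside a median of 1.34-fold for all probes tested. Within the first batch it changed by 0.69 over the 21 h (SE 0.24, limma adjusted p = 0.0867), and within the second by 0.11 (SE 0.12, limma adjusted p = 0.523). With the batch as a block the linear change was 0.86 (SE 0.32, limma adjusted p = 0.119), so the call was lost.

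SERPINB6 took the same early step. It was at 12.54, 12.62, 12.57 and 12.73 at 0, 3, 6 and 9 h, and then at 13.05, 12.97, 13.12 and 13.12 at 12, 15, 18 and 21 h. From 24 to 45 h it lay between 12.93 (45 h) and 13.11 (33 h). All 12 arrays from 12 h on were again higher than the first 4, a parting that was not counted over all probes. The set means were 12.61 ± 0.08 (SD, n = 4) from 0 to 9 h and 13.07 ± 0.07 (SD, n = 4) from 12 to 21 h, a rise of 0.45 (SE 0.07, limma adjusted p = 7.57e-05) or 1.37-fold, which was 0.70 (limma adjusted p = 0.000112) with median scaling. Neither later contrast was called, with -0.04 (limma adjusted p = 0.965) and -0.07 (limma adjusted p = 0.553).

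SERPINB6 was past the spline threshold (limma adjusted p = 0.00265), with a fitted range of 0.60. Its linear change of 0.37 (SE 0.13, limma adjusted p = 0.043) was close to the threshold, and the call was lost when the array at 0, 3, 6, 9, 24, 27, 30, 33, 36 or 39 h was left out, with changes between 0.29 and 0.39 in these fits, and with array weights, where the change was 0.15 (limma adjusted p = 0.429). With the batch as a block it was 0.66 (SE 0.26, limma adjusted p = 0.139), and the call was lost there too. Within the first batch SERPINB6 rose by 0.67 over the 21 h (SE 0.15, limma adjusted p = 0.0226), where 5.79% of all probes rose and 5.49% fell. Within the second batch the change was -0.06 (SE 0.10, limma adjusted p = 0.682). SERPINB1 and SERPINB6 had a Pearson r of 0.83 over the 16 arrays, 0.89 within 0 to 21 h and -0.35 within 24 to 45 h.

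SERPINB9, which inhibits the lymphocyte protease granzyme B, is the other 6p25 member. Its deposited intensity was 157 to 215, or 1.02 to 1.34 times the median of undetected probes on the same array. With 1 detected array its course could not be tested. The probe of its known target, GZMB, was detected on all 16 arrays at a mean deposited intensity of 251 and had a linear change of -0.00 (SE 0.02, limma adjusted p = 0.96).

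SERPINB5, SERPINB7 and SERPINB8 are the 18q21 members that fell. SERPINB5 encodes maspin, known in mammary epithelium as a suppressor of tumour growth and invasion and unusual among serpins in that it does not trap proteases in the common way. SERPINB7, or megsin, was named for kidney mesangial cells and is also expressed in the outer epidermis, where its loss causes a thickening of palm and sole skin. SERPINB8 is an intracellular serpin that inhibits furin, the protease that activates many precursor proteins. Their promoters, on the plus strand of GRCh38.p14, lie at chr18:63476708-63476957, chr18:63752807-63753056 and chr18:63969831-63970080, and for SERPINB7 the outermost of 3 listed starts was taken. They are shown to set them beside those of the rising genes. Capitals mark the AP-1 motif TGANTCA (both strands read the same), the GC box, the TATA box TATAAA and the CCAAT box on either strand.
SERPINB5: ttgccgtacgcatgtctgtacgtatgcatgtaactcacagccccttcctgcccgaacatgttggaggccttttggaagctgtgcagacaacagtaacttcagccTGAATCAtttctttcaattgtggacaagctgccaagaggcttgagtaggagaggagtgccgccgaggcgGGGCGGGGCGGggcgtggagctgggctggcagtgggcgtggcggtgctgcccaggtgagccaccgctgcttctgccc
SERPINB7: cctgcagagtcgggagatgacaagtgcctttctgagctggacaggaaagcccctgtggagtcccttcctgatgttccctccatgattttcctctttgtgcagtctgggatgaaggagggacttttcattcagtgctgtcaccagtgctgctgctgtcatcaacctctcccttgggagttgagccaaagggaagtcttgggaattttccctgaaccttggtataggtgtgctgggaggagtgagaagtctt
SERPINB8: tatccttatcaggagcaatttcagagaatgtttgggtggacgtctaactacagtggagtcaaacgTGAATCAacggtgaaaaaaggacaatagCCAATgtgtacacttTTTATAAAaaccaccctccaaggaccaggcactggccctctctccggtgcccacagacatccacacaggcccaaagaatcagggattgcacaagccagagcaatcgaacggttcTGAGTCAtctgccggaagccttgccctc

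SERPINB5 has 1 AP-1 match and 2 overlapping GC boxes in this window. SERPINB8 has 2 AP-1 matches, 1 CCAAT box and 2 TATA box matches on opposite strands that overlap. SERPINB7 has none of these letters. The AP-1 motif was found in 4 of the 7 promoters at 18q21 (SERPINB2, SERPINB5, SERPINB8 and SERPINB13) and in 0 of 3 at 6p25, and in 6.57% of all promoters in the table. TATAAA stands in 10.7% and CCAAT in 32% of them. A match is a stretch of letters and was not tested as a binding site.

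**Figure D2:**
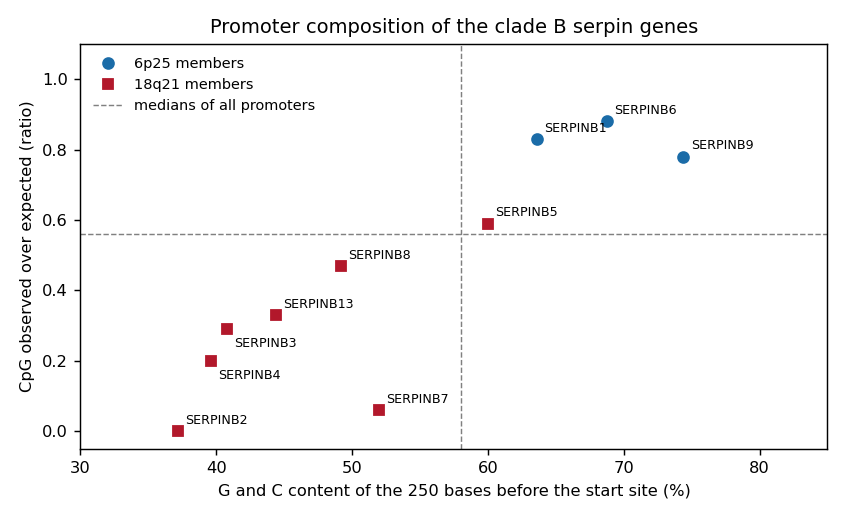
Share of G and C in percent (horizontal axis) and CpG dinucleotides, observed over expected (vertical axis), in the 250 bases before the start of the 10 genes, with circles for 6p25 and squares for 18q21. The dashed lines are the medians of all promoters in the table, 58% and 0.56, and the 3 promoters at 6p25 lie above both.

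The promoters also differed in base composition. At 6p25 the share of G and C was 63.6% before SERPINB1, 68.8% before SERPINB6 and 74.4% before SERPINB9, and the CpG count was 0.78 to 0.88 of that expected. At 18q21 the share ran from 37.2% before SERPINB2 to 60% before SERPINB5, with a median of 44.4%, and the CpG ratio from 0 to 0.59. SERPINB5 was thus the 18q21 member nearest to the 6p25 group in its promoter, although its signal fell. This composition is a description of the reference genome, and its relation to the array values was not tested.

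SERPINB7 fell furthest of the members. It was at 9.42, 10.21, 10.07 and 10.14 at 0, 3, 6 and 9 h. It was at 9.72, 9.90, 9.41 and 9.42 at 12, 15, 18 and 21 h. The 0 h array was thus lower than the 3 that followed it, and by 18 h the value had returned to that of 0 h. From 24 to 33 h it was at 9.31, 9.06, 9.20 and 9.14, and from 36 to 45 h at 8.26, 8.21, 8.14 and 8.17. The step from 33 h to 36 h alone was 1.84-fold downward, and the last 4 values lay below the earlier 12. How many of all probes part so late in the course was not counted. SERPINB7 was still detected on each of the last 4 arrays, at 2.11 to 2.45 times the median of undetected probes. Both ends of the fall were thus detected, but its size so near background depends on the background correction and the offset.

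The linear change of SERPINB7 was -2.02 (SE 0.24, limma adjusted p = 1.02e-05), and 29 of the 12321 probes tested had a lower one. Its spline had a limma adjusted p of 9.81e-06 and a fitted range of 2.04. The set mean went from 9.18 ± 0.11 (SD, n = 4) at 24 to 33 h to 8.20 ± 0.05 (SD, n = 4) at 36 to 45 h. This fall of 0.98 (SE 0.15, limma adjusted p = 0.00039), 1.97-fold, stood in a contrast in which 5.84% of all probes were lower and 6.4% higher, and came to -1.54 (limma adjusted p = 3.7e-06), after normexp at an offset of 50. The step from 12 to 21 h to 24 to 33 h was -0.44 (SE 0.15, limma adjusted p = 0.313), where 0.114% of all probes were called lower and 0.0568% higher. Between 0 to 9 h and 12 to 21 h the difference was -0.35 (SE 0.15, limma adjusted p = 0.0741), but it passed the threshold without the 0 h array (-0.53, limma adjusted p = 0.00105) or the 15 h array (-0.44, limma adjusted p = 0.0368), and was -0.01 when arrays were scaled to their medians in place of quantile normalization.

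Within the first batch SERPINB7 changed by -0.41 over the 21 h (SE 0.32, limma adjusted p = 0.407). Within the second it fell by 1.37 (SE 0.18, limma adjusted p = 0.00018), where 12.8% of all probes fell and 12% rose. The fall held with the batch as a block, at -1.91 (SE 0.50, limma adjusted p = 0.0299).

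SERPINB5 followed a course much like that of SERPINB7, with a smaller range. It was at 13.57, 14.09, 13.79 and 13.86 at 0, 3, 6 and 9 h, and at 13.51, 13.37, 13.42 and 13.26 at 12, 15, 18 and 21 h. From 24 to 33 h it was at 13.67, 13.15, 13.38 and 13.31, and from 36 to 45 h at 12.92, 12.69, 12.67 and 12.81. As with SERPINB7, the highest array was that at 3 h, the lowest that at 42 h, and the last 4 values lay below all others. The share of all probes with such a late parting was not counted. The highest value was 2.68-fold over the lowest, where SERPINB7 had 4.20-fold.

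The linear change of SERPINB5 was -1.15 (SE 0.16, limma adjusted p = 5.49e-05), with 147 of the 12321 probes tested lower, and its spline was past the threshold (limma adjusted p = 0.000555). It fell by 0.43 (SE 0.11, limma adjusted p = 0.00608) from 0 to 9 h to 12 to 21 h, a 1.35-fold lower level, and by 0.61 (SE 0.11, limma adjusted p = 0.0021) from 24 to 33 h to 36 to 45 h, a 1.52-fold lower one. Between these steps it moved by -0.01 (SE 0.11, limma adjusted p = 0.996). The earlier of the falls lost its call when arrays were scaled to their medians (-0.23, limma adjusted p = 0.102). Within the first batch the change was -0.59 over the 21 h (SE 0.19, limma adjusted p = 0.0703) and within the second -0.91 (SE 0.15, limma adjusted p = 0.000702). With the batch as a block it was -1.60 (SE 0.31, limma adjusted p = 0.00576).

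SERPINB8 fell over a smaller range. It was at 9.02, 8.68, 9.36 and 9.19 at 0, 3, 6 and 9 h, and at 8.63, 8.70, 8.71 and 8.49 at 12, 15, 18 and 21 h. The array at 3 h was 0.34 below that at 0 h, where SERPINB5 and SERPINB7 had their highest values. From 24 to 33 h it was at 8.70, 8.51, 8.58 and 8.52, and from 36 to 45 h at 8.36, 8.32, 8.35 and 8.47. The last 4 values were below all earlier ones, by 0.02 at the closest pair, 8.47 at 45 h against 8.49 at 21 h. For this parting too the share of all probes was not counted.

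Along the straight line SERPINB8 fell by 0.73 (SE 0.15, limma adjusted p = 0.00141), and 413 probes had a lower change. The linear change was -0.90 with no background correction and -1.03 with normexp at an offset of 50. Its spline was past the threshold (limma adjusted p = 0.00985). Between 0 to 9 h and 12 to 21 h it fell by 0.43 (SE 0.11, limma adjusted p = 0.00513), 1.35-fold, and between 24 to 33 h and 36 to 45 h the difference was -0.21 (SE 0.11, limma adjusted p = 0.249). Within the batches the change was -0.51 over 0 to 21 h (SE 0.26, limma adjusted p = 0.207) and -0.28 over 24 to 45 h (SE 0.09, limma adjusted p = 0.026). With the batch as a block it was -0.85 (SE 0.31, limma adjusted p = 0.106), and the call was lost.

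**Figure D3:**
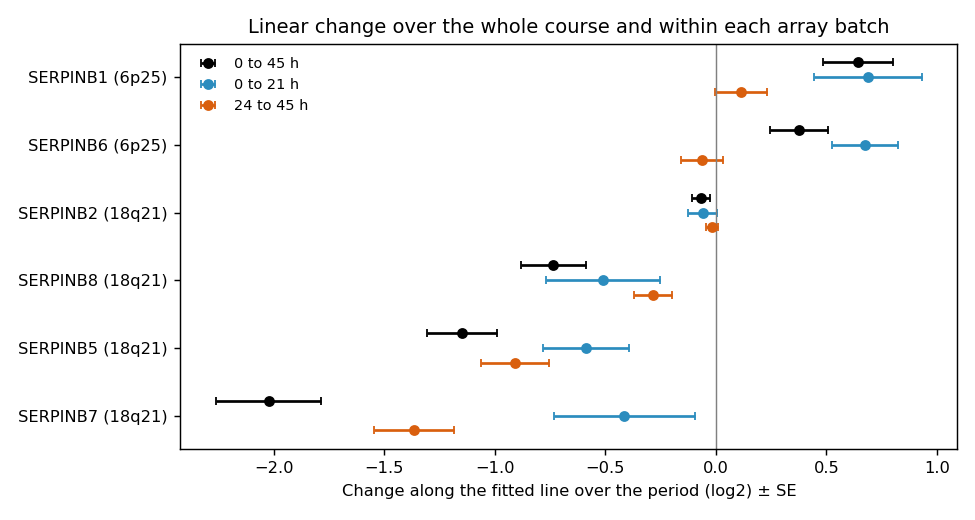
Change along a straight line in log2 (horizontal axis, points with bars of 1 SE) for the 6 tested members, over 0 to 45 h in black, within the first array batch over 0 to 21 h in blue and within the second over 24 to 45 h in orange. SERPINB1 and SERPINB6 have values of 0.69 and 0.67 over 0 to 21 h, of which that of SERPINB6 passed the test, and lie near 0 over 24 to 45 h, while the larger part of the change of SERPINB7, -1.37 against -0.41, lies in the second batch.

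SERPINB2, or PAI-2, inhibits the urokinase-type plasminogen activator and is known for strong induction in inflamed or stressed cells. Its values stayed between 7.91 (27 h) and 8.12 (3 h), a range of 1.16-fold, and its deposited intensity was 166 to 274. It was at 1.14 to 1.90 times the median of undetected probes, so a small change near this limit was hardly measurable. Along the straight line it changed by -0.07 (SE 0.04, limma adjusted p = 0.247), and the spline gave a limma adjusted p of 0.64. Within the batches the change was -0.06 over 0 to 21 h (limma adjusted p = 0.563) and -0.02 over 24 to 45 h (limma adjusted p = 0.693). The p of the spline was 0.0183 when the 0 h array was left out, with a fitted range of 0.16, and 0.0418 with array weights. With arrays scaled to their medians the linear change was -0.21 (limma adjusted p = 0.0304) and the difference between 0 to 9 h and 12 to 21 h was -0.17 (limma adjusted p = 0.00794). With this scaling the medians of all probes tested were -0.10 and -0.09. In the linear fit 1637 rose and 2960 fell, and in the set contrast 2570 were higher and 4895 lower.

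SERPINB3 and SERPINB4 are the squamous cell carcinoma antigens, the former an inhibitor of cathepsins L, K and S and the latter of cathepsin G and chymase, and SERPINB13, or headpin, inhibits cathepsins L and K in keratinocytes. All 3 stayed at the level of undetected probes. The deposited intensity was 134 to 181 for SERPINB3, 141 to 217 for SERPINB4 and 133 to 184 for SERPINB13, and their lowest detection p over the 16 arrays was 0.182, 0.112 and 0.268. Their level could not be told from background on this array. SERPINB3 and SERPINB4 are close copies, with promoters that differ at 3 of 250 bases, so whether each probe reads its own transcript alone is uncertain.

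**Figure D4:**
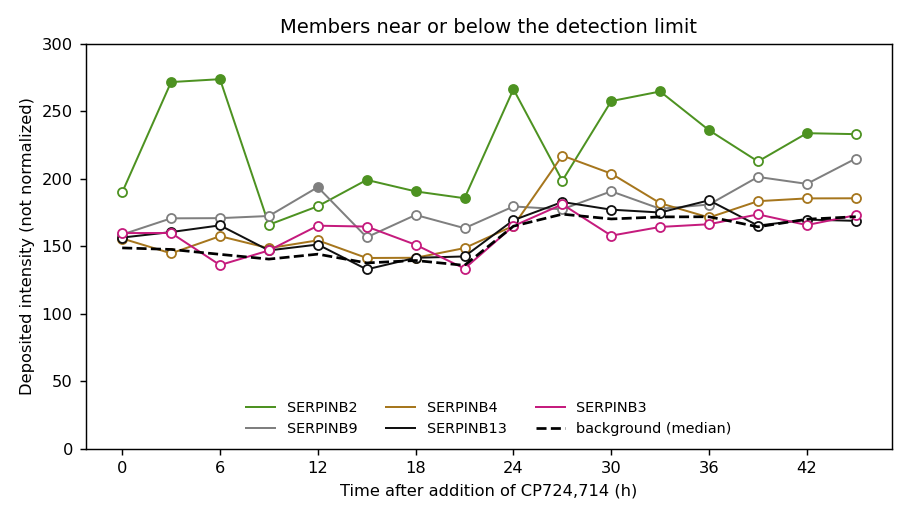
Deposited intensity before normalization (vertical axis) of the 5 members near or below detection against time after addition of CP724,714 in hours (horizontal axis). Filled points are detected, open points are not, and the dashed line is the median of undetected probes, which steps up between 21 h and 24 h. Only SERPINB2 (10 arrays) and SERPINB9 (1 array) have filled points.

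Set side by side, the members were called at different steps. Between 0 to 9 h and 12 to 21 h, 2 members were called higher (SERPINB1 and SERPINB6) and 2 lower (SERPINB5 and SERPINB8), beside 17.5% of all probes higher and 18% lower. Between 12 to 21 h and 24 to 33 h, where the array batches meet, 0 of the 6 were called, beside 0.0568% of all probes higher and 0.114% lower. Between 24 to 33 h and 36 to 45 h, 0 were higher and 2 lower (SERPINB5 and SERPINB7), beside 6.4% of all probes higher and 5.84% lower. SERPINB5 was thus called in both of these steps, SERPINB7 in the later one, and whether the steps of the genes differ was not tested.

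**Figure D5:**
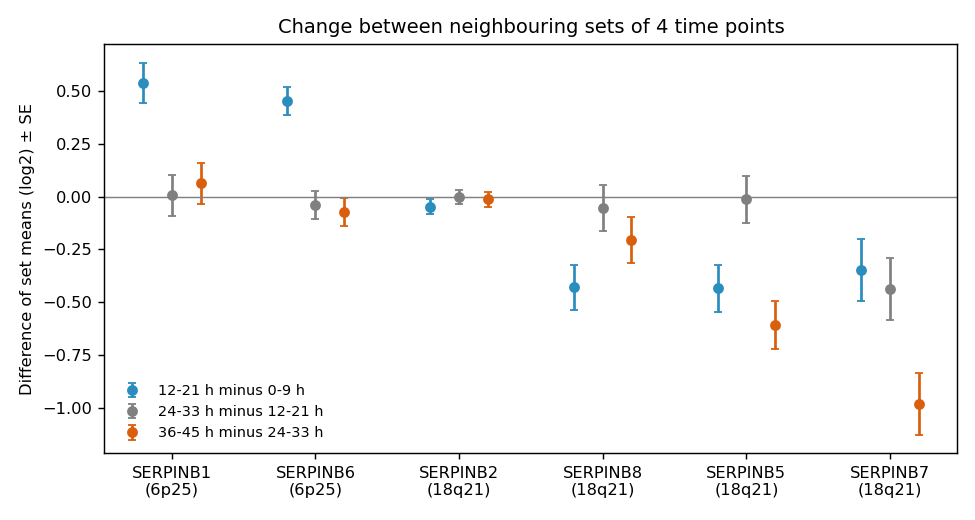
Difference of the means of neighbouring sets of 4 time points in log2 (vertical axis, points with bars of 1 SE) for the 6 tested members (horizontal axis), with 12 to 21 h minus 0 to 9 h in blue, 24 to 33 h minus 12 to 21 h in grey and 36 to 45 h minus 24 to 33 h in orange. The blue points of SERPINB1 (0.54) and SERPINB6 (0.45) are above 0, and the orange points of SERPINB5 (-0.61) and SERPINB7 (-0.98) are the lowest of that colour.

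Against the 0 h array, a 1.7-fold difference at some time point was reached by 2 of the 6 tested members, beside 19.5% of all probes tested; 10.9% were so much higher and 9.47% so much lower. SERPINB7 was 1.73-fold higher at 3 h and 2.24 to 2.43-fold lower at the 4 times from 36 to 45 h. SERPINB5 was lower by 1.84-fold at 39 h and 1.86-fold at 42 h, and at 45 h, with 1.69-fold, lay just under the limit. SERPINB1 came to 1.42-fold and SERPINB6 to 1.5-fold over 0 h at most, and SERPINB8 to 1.63-fold below it. SERPINB8 is dim, as is SERPINB7 from 36 to 45 h, and folds of dim probes are understated with the offset used. The 0 h array has no replicate, so this count has no error term.

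Among the members, SERPINB5 and SERPINB7 were the most alike, with a Pearson r of 0.93 over the 16 arrays, 0.80 within 0 to 21 h and 0.95 within 24 to 45 h. SERPINB8 had an r of 0.75 with each of them over the 16 arrays. With SERPINB5 it was 0.49 within 0 to 21 h and 0.94 within 24 to 45 h, and with SERPINB7 0.43 and 0.88. SERPINB1 had an r of -0.75 with SERPINB5, of -0.71 with SERPINB7 and of -0.77 with SERPINB8. For SERPINB6 these were -0.51, -0.40 and -0.69 over the 16 arrays, and 0.46, 0.58 and 0.31 within 24 to 45 h. These values describe courses over the same arrays, which share the culture series, the batch split and the dim arrays, and carry no p.

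The genes whose course was most like that of a member were taken from all probes tested, again by Pearson's r over the 16 arrays and as a description. Closest to SERPINB5 were the keratin genes KRT6B (r = 0.96) and KRT6C (r = 0.95), which mark stressed and fast-growing squamous epithelium, and PRPS1 (r = 0.95), an enzyme that supplies nucleotide synthesis; their r within 24 to 45 h was 0.99, 0.97 and 0.92. Closest to SERPINB7 were SPTLC1 (r = 0.97), a subunit of the first enzyme of sphingolipid synthesis, the adaptor SH3KBP1 (r = 0.96) and the calcium-binding protein S100P (r = 0.96). For S100P the likeness lay mostly in the second batch, with r = 0.98 there and 0.65 in the first. SERPINB8 was closest to C20orf24 (r = 0.96), C11orf24 (r = 0.96) and the exonuclease ISG20 (r = 0.93).

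For the rising members the likeness was higher in the first batch. SERPINB1 was closest to the choline transporter-like gene SLC44A2 (r = 0.98), to FRAG1 (r = 0.96) and to BCKDHA (r = 0.96), a subunit of the enzyme complex that breaks down branched-chain amino acids. Within 0 to 21 h these were 0.98, 0.97 and 0.98, and within 24 to 45 h 0.80, 0.71 and 0.39. SERPINB6 was closest to PHF11 (r = 0.95), the respiratory complex subunit UQCRC1 (r = 0.95) and the heme synthesis enzyme PPOX (r = 0.94), with 0.43, 0.51 and 0.63 within 24 to 45 h.

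Proteases that clade B serpins are known to inhibit were followed as a list of 20 genes. Of these, 12 were tested, 10 were time-dependent by the spline, 2 rose and 3 fell by the straight line. Of all probes tested, 41.9% were time-dependent, 12.9% rose and 11.5% fell. The neutrophil proteases ELANE (listed as ELA2), PRTN3 and CTSG, known targets of SERPINB1 and SERPINB6, were detected on 0 arrays, as were PLG, CTSS, F2 and HPN. PLAU, the urokinase-type activator that SERPINB2 inhibits, fell by 1.91 (SE 0.27, limma adjusted p = 5.84e-05), and its fall held with the batch as a block (-2.76, limma adjusted p = 0.0045). The lysosomal cathepsins CTSL and CTSV (listed as CTSL2) fell by 0.67 and 0.89 over the course, but with the batch as a block both calls were lost (-0.37, limma adjusted p = 0.582, and -0.68, limma adjusted p = 0.54). Within the batches CTSL was called in neither, and CTSV was at 0.51 over 0 to 21 h (limma adjusted p = 0.272) and -1.14 over 24 to 45 h (limma adjusted p = 0.000166). The epidermal kallikrein KLK5 rose by 0.82 over the course, but it fell by 0.67 within 0 to 21 h (limma adjusted p = 0.0231), rose by 0.89 within 24 to 45 h (limma adjusted p = 0.000166), and was at 0.24 (limma adjusted p = 0.832) with the batch as a block. The membrane protease TMPRSS2 rose by 0.40, and by 0.50 (limma adjusted p = 0.0308) with the block. FURIN, the target of SERPINB8, had a linear change of 0.21 (SE 0.09, limma adjusted p = 0.123). PLAUR, the receptor of urokinase, had a linear change of 0.06 but was time-dependent by the spline (limma adjusted p = 0.000149).

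The serpins of other clades and the genes beside the clusters were set beside the members in the same way. Of 14 serpins of other clades 9 were tested, 6 were time-dependent, 0 rose and 4 fell. The shares of all probes tested were 41.9% time-dependent, 12.9% rising and 11.5% falling. The secreted inhibitors SERPINA3 and SERPINE2 fell by 2.50 and 2.01, and SERPINI1, with a mean deposited intensity of 194, by 0.13. With the batch as a block SERPINA3 (-1.84, limma adjusted p = 0.0017) and SERPINE2 (-3.00, limma adjusted p = 0.00373) kept their calls and SERPINI1 (-0.20, limma adjusted p = 0.0801) lost its call. SERPINE2 and SERPINA3 were also lower from 36 to 45 h than from 24 to 33 h, by 1.38 and 0.65 on the log2 scale. In that contrast 5.84% of all probes were lower and 6.4% higher. SERPINA3 was lower at both earlier steps too, by 0.43 and 0.91, and SERPINE2 at the first, by 0.65. Of the other clade B genes, SERPINB11 and SERPINB12 were detected on 0 arrays, and SERPINB10 had no probe under its symbol.

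Of the 10 genes that flank the 6p25 cluster 7 had a probe and 6 were tested, and 2 of these were time-dependent (FOXC1 and BPHL). Among all probes tested 41.9% were time-dependent and, by the straight line, 12.9% rose and 11.5% fell. FOXC1 fell by 0.69, and none rose by the straight line. BPHL, however, was higher by 1.05 (limma adjusted p = 2.48e-06) from 12 to 21 h than from 0 to 9 h. SERPINB1 and SERPINB6 rose at that step, where 17.5% of all probes were higher and 18% lower. BPHL also lay over 1.7-fold above its 0 h value at 7 times, a height that 10.9% of all probes reached at some time. Between the same sets the other tested 6p25 neighbours changed by -0.33 (FOXC1) to 0.02 (RIPK1), and none was called. Of the 10 that flank the 18q21 cluster 6 were tested, 0 were time-dependent by the spline and 1 fell by the straight line, KDSR (listed as FVT1), by 0.31. With the batch as a block FOXC1 (-0.70, limma adjusted p = 0.214) and KDSR (-0.32, limma adjusted p = 0.385) lost their calls. The median linear change of the tested neighbours was 0.11 at 6p25 and -0.01 at 18q21, beside 0.51 and -0.94 for the tested members of those clusters. Only 2 of the 6 tested 18q21 neighbours, KDSR and VPS4B, were detected on all 16 arrays, against 6 at 6p25. The remaining 18q21 neighbours were dim, and changes of dim probes are understated with the offset used, so their small changes say little.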

How the data were processed

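RNA of 16 cultures was measured on Illumina Ref-8 v2 arrays, 1 per time point. The authors deposited probe intensities before normalization between arrays, and the deposited detection p-values set each probe against the negative controls of its array. On each array 99 to 190 probes brighter than 300 had a detection p of 0.05 or more, so the p does not follow the deposited intensity alone. Samples were grouped by the treatment time in the labels. Intensities were background-corrected and quantile-normalized with neqc (limma 3.58.1, R 4.3.3; background moments taken from those p-values, offset 16) and taken to log2; with this offset, folds of dim probes are understated. The 12321 of 20589 probes that at least 3 arrays detected at p under 0.05 were fitted in limma (lmFit, eBayes with a mean-variance trend) against a natural cubic spline (4 degrees of freedom) in hours and against a straight line, with Benjamini-Hochberg adjustment over all probes tested and 0.05 as the threshold. The scripts were tested on simulated data. The number of arrays limits the precision.

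The members, lists and tests were chosen with earlier results of these data known. The text names all 10 members, the 3 genes most like each time-dependent member, and genes of lists written from general knowledge; 1 gene of these lists is not reported here. Promoters are the 250 bases before the RefSeq start (GRCh38.p14), and the gene order beside the clusters is from the same build. Alternatives covered background correction, normalization, detection filter, array weights, mean-variance trend, spline, batch, baseline, fold limit and single arrays; the sets of 4 time points were chosen after seeing the data.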

Additional observations from a re-analysis of the deposited data

How the results depend on the processing

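No paired analysis was possible because there was 1 array per time. Choices were changed singly, except that normexp changed both the source of the background estimate and the offset. The number of members rising by the straight line, 2, was 1 with median scaling, with no filter on detection, with array weights and within 0 to 21 h, and 0 with the array batch as a block and within 24 to 45 h. The number falling, 3, was 0 within 0 to 21 h, 2 with the array batch as a block and 4 with median scaling. A block of the 24 to 33 h and 36 to 45 h sets within the second batch, added after the data were seen, left 0 rising and 0 falling. The number that was time-dependent, 5, was 3 with the array batch as a block and 6 with array weights and with no filter on detection. The number past 1.7-fold, 2, was 4 with normexp at an offset of 50 and 3 with no background correction or with median scaling. It was 1 at 2-fold or with the median over the arrays as baseline.

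When each array was left out in turn, 1 to 2 members rose, 3 fell and 5 to 6 were time-dependent; SERPINB2 was the added one, without the 0 h array. The count past 1.7-fold was 2 throughout, but the 0 h array could not be left out of it, and 5 members changed between neighbouring sets in every case. SERPINB6 turned direction within 24 to 45 h, at -0.14 scaled to 45 h, and SERPINB2 between 24 to 33 h and 36 to 45 h without the 24 h array, at 0.00038 (range -0.034 to 0.00038 over the arrays left out); neither was past the threshold. For single members, over the settings other than leaving out 1 array, those chosen after seeing the data aside, 52 linear changes kept direction and call, 11 lost the call, 1 gained it and 1 reversed; of the splines 62, 2, 1 and 0.

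Median scaling moved the median linear change of all probes tested to -0.10 and gave 1637 rises and 2960 falls, against 1584 and 1420. Between 0 to 9 h and 12 to 21 h it gave 2570 probes higher and 4895 lower, against 2162 and 2216. A mean over the probes of a gene was not run, since each member has 1 probe. SERPINB2, SERPINB3, SERPINB4, SERPINB9 and SERPINB13 lie too close to background for small changes to be seen.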
